A study of Mus musculus with 82 samples.

Results

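BXD mouse strains were divided by the liver level of Apcs, the transcript of serum amyloid P component, and all other measured genes were then compared between the strains with high and with low Apcs. The groups were chosen by the Apcs values themselves: the 13 strains were sorted by their mean Apcs ratio and split at the largest gap that left at least 3 strains on each side. This gave 9 high-Apcs strains (BXD2, BXD5, BXD11, BXD15, BXD16, BXD18, BXD19, BXD28 and BXD32) and 4 low-Apcs strains (BXD6, BXD12, BXD21 and BXD31), which are 13 of the 17 BXD strains in the array labels (the series description names 18). They were measured on 64 of its 82 arrays, 41 for the high-Apcs and 23 for the low-Apcs strains.

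BXD strains are recombinant inbred lines, each homozygous for its own mosaic of the genomes of 2 parents, C57BL/6J (B6) and DBA/2J (D2). Liver RNA of each strain was hybridised against RNA of B6 embryos taken at day 17.5 (the embryo mix), a reference shared by every strain, and every value below is the log2 ratio of liver to that mix unless another is named. Mice were untreated and, per the series description, unfasted and 10 to 20 weeks old. That description names males only, whereas the array labels give both sexes, with 28 arrays of males and 36 of females among the 13 strains. Each of the 13 strains had arrays in both orientations in both sexes, and 4 further strains, BXD8, BXD9, BXD14 and BXD27, had forward arrays only and were not used for the split. The sources used here do not say whether mice were pooled or whether repeat arrays came from separate animals, so each strain counted once. The deposited ratios carry no unit, and both channels carry the same dye label. They were read as log10 of channel 2 over channel 1, the reading in which hepatocyte genes are higher in liver, and every log2 value and fold below rests on that reading. A ratio to a whole embryo mix, which itself holds fetal liver, shows differences between strains but not an absolute level in liver. Genotypes of the strains were not analysed here.

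Serum amyloid P component is a pentraxin, a plasma protein of identical subunits arranged in a ring that binds amyloid fibrils, chromatin and bacterial surfaces and can engage complement. Hepatocytes make it, and in the mouse it is the main acute-phase pentraxin, the place that C-reactive protein holds in people. Acute-phase genes are switched on in hepatocytes by interleukin-6 through STAT3, together with C/EBP factors and interleukin-1 signals, and the basal level of Apcs is known to vary between inbred mouse strains. The gene lies on distal chromosome 1, next to a cluster of interferon-inducible genes.

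The stretch just before the Apcs start site is shown because this gene set the groups. It holds the 250 bases upstream of the start in the B6 reference, GRCm38.p6 of RefSeq, chr1:172895055-172895304 on the minus strand, written 5′ to 3′, and capitals mark a match to the STAT motif TTCNNNGAA.

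Apcs: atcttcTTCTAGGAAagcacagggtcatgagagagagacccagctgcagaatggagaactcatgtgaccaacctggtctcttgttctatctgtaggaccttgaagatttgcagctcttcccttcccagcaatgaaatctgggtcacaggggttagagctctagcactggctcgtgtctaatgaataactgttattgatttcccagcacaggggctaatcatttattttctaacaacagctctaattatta

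The window had 1 match to TTCNNNGAA, starting 7 bases from its 5′ end, and 7.02% of 32851 promoter windows of the same length held at least 1 match on either strand. It had no match to the C/EBP letters TTGCGCAA, which 0.16% of the windows held, or to TATAAA, which 12.37% held. These are matches of letters in the B6 reference. The D2 sequence was not analysed here.

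Apcs was higher in liver than in the embryo mix in every strain, and its ratio spanned 11.5-fold from the lowest strain to the highest. Among the low-Apcs strains the mean log2 ratio was 1.31 in BXD6, 1.62 in BXD31, 1.87 in BXD21 and 2.14 in BXD12. Among the high-Apcs strains it was 2.76 in BXD15, 2.80 in BXD19, 2.82 in BXD32, 2.94 in BXD16, 3.12 in BXD2, 3.28 in BXD5, 3.35 in BXD18, 4.27 in BXD11 and 4.84 in BXD28. The groups cannot overlap, because Apcs chose them. Their means were 3.35 ± 0.72 (SD, n = 9 strains) and 1.73 ± 0.35 (SD, n = 4 strains), a 3.07-fold difference that is given as a description with no test.

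The values just inside and just outside the split were those of BXD15 and BXD12, 0.62 apart. The next largest gap that met the rule, between BXD21 and BXD12, was 0.27. A wider gap of 0.91 separated BXD18 from BXD11, but it left only 2 strains above it. Apcs thus ran over a range in which BXD11 and BXD28 stood at the top, rather than over 2 tight classes.

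**Figure D1:**
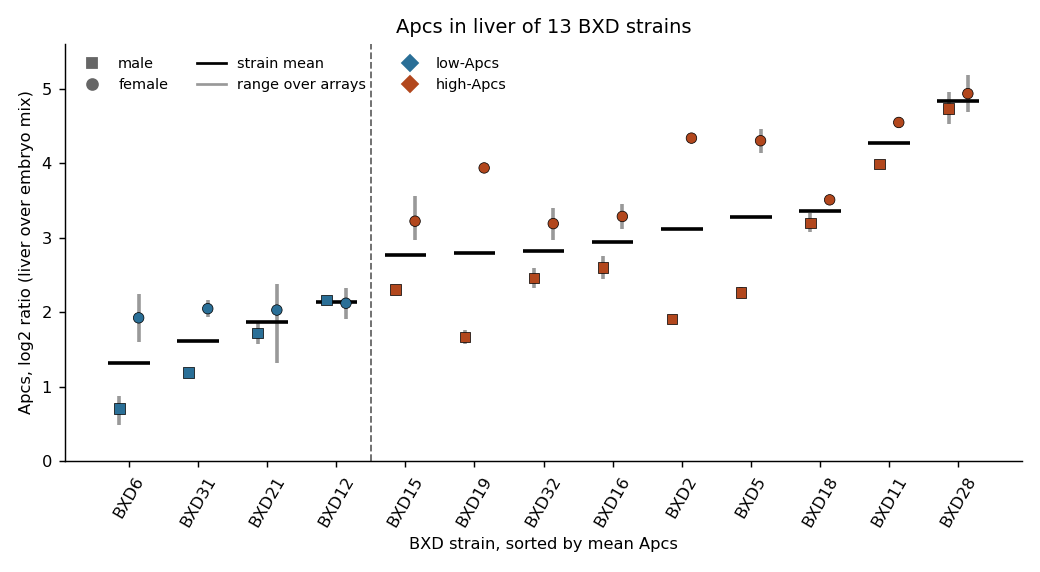
Apcs log2 ratio of liver to embryo mix (y axis) in 13 BXD strains sorted by their mean (x axis), with squares for males, circles for females, grey lines for the range over the arrays of a strain and sex, black bars for strain means and a dashed line at the split. The female points of the high-Apcs strains all lie above those of the low-Apcs strains, whereas the male points of BXD19 (1.66) and BXD2 (1.90) lie below that of BXD12 (2.16).

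The sexes of a strain did not give the same separation. In females the low-Apcs strains lay between 1.92 and 2.12 and the high-Apcs strains between 3.19 and 4.93, so the groups were 1.07 apart and the same split would have been made. In males the low-Apcs strains lay between 0.70 and 2.16 and the high-Apcs strains between 1.66 and 4.74, and the groups overlapped. The rule applied to males alone put only BXD11, BXD18 and BXD28 in the high group.

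Apcs was higher in females than in males in 9 of 9 high-Apcs strains, by 1.13 ± 0.87 (SD, n = 9), and in 3 of 4 low-Apcs strains, by 0.59 ± 0.56 (SD, n = 4). The largest female excess, 2.43, was in BXD2, whose male value was 1.90 and whose female value was 4.34. BXD12 had the reverse order, with a female value 0.04 below the male one. The female excess was 0.54 larger in the high-Apcs strains (SE 0.43, limma adjusted p = 0.999). The male and female values in that contrast are the ones that chose the groups, so no conclusion is drawn from its p.

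Repeat measurements of a strain and sex were compared with the spread of the strains. Forward and swapped arrays, in which the dyes are exchanged, differed in Apcs by a median of 0.17 and at most 0.65 over the 26 groups of strain and sex, against an SD of 0.99 over the 13 strain means. The largest difference was in BXD6 females (1.60 forward, 2.24 swapped), followed by BXD21 females (2.34 and 1.71). Single arrays of BXD21 females ranged from 1.31 to 2.38, wider than the gap of the split, and that strain's mean rests on their average.

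Measurements that the split did not use showed the same gene varying. Male B6 liver against the embryo mix gave Apcs ratios of 1.62 on the forward and 1.66 on the swapped array, inside the range of the low-Apcs males. The 4 strains with forward arrays only had forward means of 2.92 in BXD14, 3.88 in BXD27, 4.26 in BXD9 and 4.36 in BXD8. On forward arrays alone the low-Apcs strains reached 2.27 and the high-Apcs strains began at 2.75, so these 4 strains fell on the high side.

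On 6 arrays that set D2 directly against B6 liver, Apcs was higher in D2 on every array, by 2.70 to 3.58. The mean over the sexes was 3.13 (SE 0.15), or 8.73-fold, with 3.41 in males and 2.84 in females, and limma gave an adjusted p of 6.78e-04 over all features. By p-value Apcs ranked 3 among 21915 features, of which 125 were called (0.57%), 50 higher and 75 lower in D2. Only 2 values, 1 per sex, entered that test. With replicate 1 arrays alone the count of calls was 25, and with 4 values, 1 per sex and replicate number, it was 39. Apcs was called in both (adjusted p = 0.0213 and 0.00548). Forward and turned swapped arrays of this comparison correlated at only -0.02 in males and 0.13 in females across probes, and the direction of these ratios was read as on the other arrays. D2 liver against the embryo mix was not analysed here.

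The question put to the other genes was whether any of them differed between the same strains. No feature did at an adjusted p under 0.05 by limma, out of 21914 tested (0% called), and the smallest adjusted p was 0.327. At an unadjusted p under 0.05 there were 894 features (4.08%), 632 with the higher mean in the high-Apcs strains (2.88%) and 262 with the lower (1.2%). That balance moved with the setting: 607 of 1164 were higher in females alone, 459 of 832 on swapped arrays alone, and 504 of 1289 with BXD11 and BXD28 set against the other strains. In 46 features (0.21%) the groups did not overlap, 36 with the high-Apcs strains above and 10 with them below. Differences were small on the whole: the median absolute difference was 0.06, the median SE was 0.09, and 8 features exceeded 1. With 4 strains in the smaller group, the interval of a typical gene leaves room for a modest difference, so a missing call does not show equal levels.

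Of the 21914 features 3438 had a gene name, and 191 of these were at an unadjusted p under 0.05 (5.56%), 146 higher and 45 lower in the high-Apcs strains. Without BXD21 the count over all features was 544, and in males alone it was 527. The groups did not overlap in 4 of the 3438 named genes, against 46 of all 21914 features (0.21%). They were Sec23b, Stag1 and Cflar, higher in the high-Apcs strains, and Tlr5, lower.

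Sec23b encodes a coat subunit of the vesicles that carry secretory cargo out of the endoplasmic reticulum (ER). Its ratio was 0.52 in BXD6, 0.41 in BXD31, 0.37 in BXD21 and 0.43 in BXD12, and in the high-Apcs strains it ran from 0.59 (BXD18) over a median of 0.88 to 1.12 (BXD19). All 4 low values lay under the lowest high one, by as little as 0.07. The difference was 0.43 (SE 0.10, limma adjusted p = 0.824). It was 0.53 in males and 0.33 in females. The Sec23b value did not follow Apcs within the high group: BXD28, highest in Apcs, had 0.81, and BXD19, among the lower ones, had 1.12. D2 and B6 liver had nearly the same Sec23b (0.04, D2 over B6).

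Cflar, which encodes the caspase-8 inhibitor c-FLIP and lies on proximal chromosome 1, had 0.63, 0.53, 0.57 and 0.74 in BXD6, BXD31, BXD21 and BXD12. In the high-Apcs strains it ran from 0.74 (BXD18) over 0.93 to 1.31 (BXD15), so the groups did not overlap but nearly touched. The difference was 0.36 (SE 0.10, unadjusted p = 0.00227, adjusted p = 0.925), 0.16 in males and 0.56 in females. Stag1, a cohesin subunit, had its lowest values, from -1.14 up, in the low-Apcs strains and lay between -0.95 and -0.51 in the high-Apcs strains, a difference of 0.31 (SE 0.08, adjusted p = 0.925).

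The other genes with the smallest p among those higher in the high-Apcs strains had varied roles. Pex2, a peroxisome assembly factor, had the widest difference, 0.60 (95% interval 0.23 to 0.97), with 0.35 to 1.08 in the low-Apcs and 0.70 to 1.61 in the high-Apcs strains. Dynll1, the dynein light chain, differed by 0.55, the nucleoside diphosphate kinase Nme6 by 0.52, the transcription elongation factor Tcea1 by 0.52 and the intraflagellar transport gene Ift20 by 0.45. The proteasome subunit Psmd14 differed by 0.41, the haematopoietic gene Plek by 0.36, Ggps1 of isoprenoid synthesis by 0.29, the centromere gene Cenpc1 by 0.27, Ranbp1 of nuclear transport by 0.26, Dbil5 by 0.23 and the glutamate receptor gene Gria4 by 0.20. In all of these the groups overlapped, and none had an adjusted p under 0.885. Ggps1 was 0.60 in females and -0.02 in males.

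Genes with the smallest p among those lower in the high-Apcs strains were likewise of varied roles. Gys2, the liver glycogen synthase, had 2.87 in BXD6, 3.19 in BXD31, 2.37 in BXD21 and 2.52 in BXD12, against 1.94 to 2.68 in the high-Apcs strains. The difference was -0.48 (95% interval -0.86 to -0.10, adjusted p = 0.986), and it was -0.24 in males and -0.72 in females. Hgfac, the secreted activator of hepatocyte growth factor, differed by -0.44, the cytochrome P450 gene Cyp2f2 by -0.28, Bckdha of branched-chain amino acid breakdown by -0.26 and the ferredoxin reductase Fdxr by -0.18. Car1, the carbonic anhydrase known from red cells, differed by -0.38, Ndrg3 by -0.42, Extl3 of heparan sulfate synthesis by -0.26, the mitochondrial import gene Timm13 by -0.25, the STAT5 target and cytokine inhibitor Cish by -0.23, and Tdh by -0.21. Rasa3 (-0.19) and Col5a3 (-0.15) followed. These genes were picked by their p-values, so their size is a description of the top of the ranking.

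**Figure D2:**
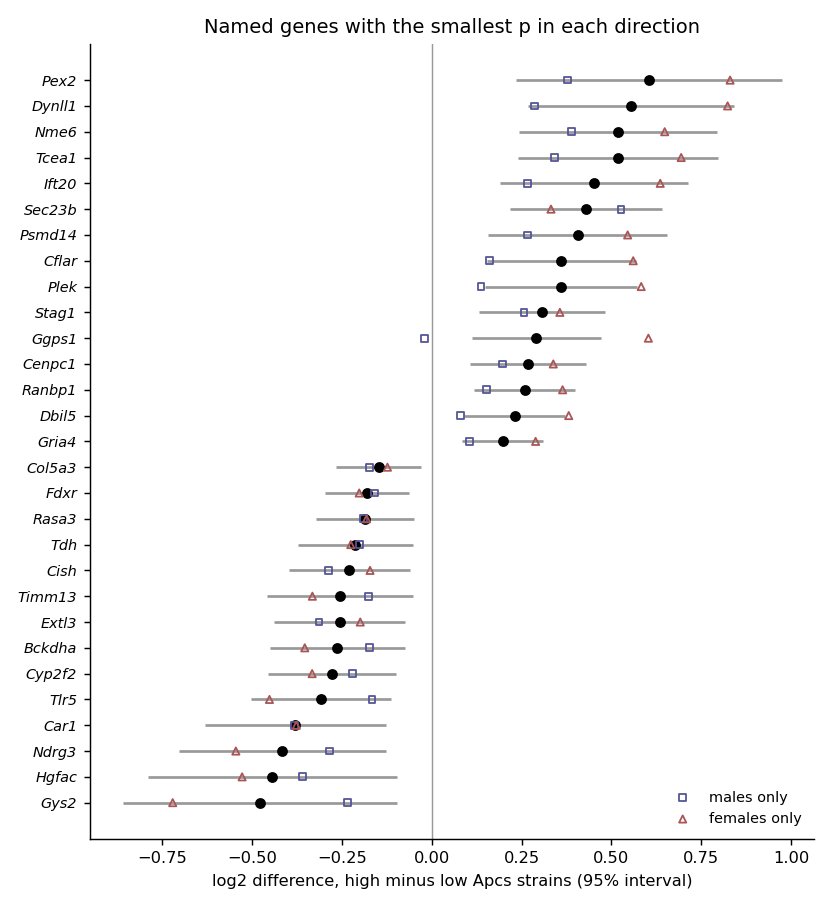
Difference in log2 ratio between high-Apcs and low-Apcs strains (x axis, black points with 95% intervals) for the named genes with the smallest unadjusted p in each direction, with open squares for males and open triangles for females. Differences ran from -0.48 for Gys2 to 0.60 for Pex2, and for Ggps1 the male value (-0.02) lay on the other side of 0 from the female one (0.60).

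Apcs is itself an acute-phase gene, and the other measured members of that class were followed across the same strains. Of 18 acute-phase and plasma protein genes measured besides Apcs, 0 were called by limma and 1, Ahsg, was at an unadjusted p under 0.05 (5.56%, against 4.08% of all features). That count was 4 without BXD12 (Fgl1, Ahsg, F5 and F10) and 0 without BXD21, where all features gave 1147 and 544. It was 5 with the split at the second largest gap (Fgl1, Ahsg, Pzp, F5 and F10) and 4 with Apcs as a continuous covariate (Saa3, Orm1, Fgl1 and F5), where 1223 and 1089 of all features were at that level, and none was called. Over the 13 strain means Fgl1 correlated with Apcs at r = 0.67, Saa3 at 0.63 and Orm1 at 0.55, and without BXD28 and BXD6 at 0.32, 0.16 and 0.35. Their median difference was 0.03, against -0.01 over all features. Among 8 positive acute-phase genes, which inflammation raises, 7 had the higher mean in the high-Apcs strains, from 0.03 to 0.54.

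Fgl1, a fibrinogen-like protein of hepatocytes, had the widest difference of these. It was 2.58 in BXD6, 4.19 in BXD31, 3.68 in BXD21 and 4.42 in BXD12, and in the high-Apcs strains it ran from 3.93 (BXD2) over 4.17 to 4.79 (BXD28). The groups overlapped, and BXD6, lowest in Apcs, was also lowest in Fgl1. The difference was 0.54 (95% interval -0.04 to 1.11, adjusted p = 0.986), and it was 0.16 without BXD6. Between the parents Fgl1 was higher in D2, as Apcs was, by 1.50 (limma adjusted p = 0.0277, and 0.142 with replicate 1 arrays alone).

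Saa3, a serum amyloid A gene strongly induced in inflammation, was 0.75, 1.06, 0.92 and 1.96 in BXD6, BXD31, BXD21 and BXD12, and 0.81 to 3.40 in the high-Apcs strains with a median of 1.22. The highest value was in BXD28, which also had the highest Apcs, and the group difference was 0.33 (95% interval -0.53 to 1.19). Orm1, an acid glycoprotein, was likewise highest in BXD28 (4.80) and differed by 0.09 (-0.36 to 0.53). When BXD11 and BXD28 were set against the other 11 strains, an alternative added after seeing the data, Saa3 differed by 1.03 and Orm1 by 0.58, and both were then at an unadjusted p under 0.05 with no call after adjustment. The Saa3 value rests on BXD28, since BXD11 had 1.15, below the median of the high-Apcs strains.

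The remaining positive members had narrow differences. Ceruloplasmin (Cp) differed by 0.09 (-0.06 to 0.25), the protease inhibitor Serpina3n by 0.05 (-0.43 to 0.54), the lipopolysaccharide-binding protein Lbp by 0.03 (-0.38 to 0.44) and Saa4 by 0.03 (-0.17 to 0.23). Haptoglobin (Hp), which binds free haemoglobin, differed by -0.16 (-0.44 to 0.12). Lbp was among the genes called between the parents, 0.96 higher in D2 (limma adjusted p = 0.0477, and 0.12 with replicate 1 arrays alone).

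Among 10 negative acute-phase and constitutive plasma proteins, 4 had the higher and 6 the lower mean in the high-Apcs strains, with a median of -0.09. Ahsg, which encodes the mineral-binding protein fetuin-A, was 0.14, 0.34, 0.42 and 0.22 in BXD6, BXD31, BXD21 and BXD12, and -0.10 to 0.21 in the high-Apcs strains. The difference was -0.17 (95% interval -0.32 to -0.03, unadjusted p = 0.0231, adjusted p = 0.986). It was -0.32 in females and -0.03 in males, and -0.34 on forward against 0.00 on swapped arrays. The remaining 9 lay between -0.20 for coagulation factor F5 and 0.13 for F12. Serpina6, the plasma carrier of glucocorticoids, differed by -0.18 although it was called between the parents, 1.14 higher in D2 (limma adjusted p = 0.0252, and 0.187 with replicate 1 arrays alone).

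**Figure D3:**
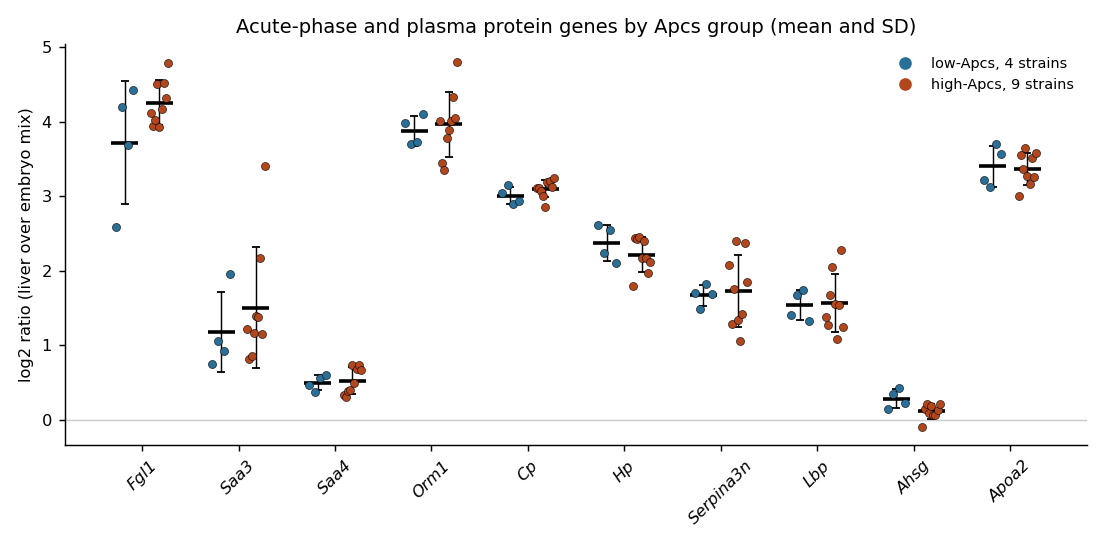
Log2 ratio of liver to embryo mix (y axis) of 8 positive acute-phase genes and of Ahsg and Apoa2, with 1 point per strain, blue for the 4 low-Apcs and orange for the 9 high-Apcs strains, and bars for the mean and SD. The groups overlap for every gene shown, with BXD6 low in Fgl1 (2.58) and BXD28 high in Saa3 (3.40) and Orm1 (4.80).

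Genes that carry acute-phase signals were measured for 10 of 32 listed, and 0 were called. Cish (-0.23, unadjusted p = 0.0116) had the smallest p. The transcription factor Cebpb differed by -0.33 (95% interval -0.88 to 0.21) and was lowest, at 0.34, in BXD28. The interleukin-6 receptor chain Il6st differed by 0.02 and Jak2 by 0.03. Of 13 genes of complement and other pentraxin partners 0 were called, and the smallest p was that of C1qb (0.19, unadjusted p = 0.112).

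Since Apcs lies on distal chromosome 1, the genes on both sides of it were followed in gene order. They numbered 79, with 40 before Apcs and the 39 measured after it, up to the end of the chromosome. None was called, and 4 were at an unadjusted p under 0.05 (5.06%, against 4.08% over all features). That count was 8 without BXD12 and 2 without BXD6 or without BXD21, where all features gave 1147, 786 and 544. It ranged from 1 with 17 strains on forward arrays (all features 1019) to 10 with the split at the second largest gap (1223). Their median difference was 0.01. Of all 191 named genes of chromosome 1, 12 were at that level (6.28%), and the shares of the other chromosomes with more than 6 measured genes ran from 1.32% for chromosome 19 to 7.84% for chromosome 3.

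The 6 nearest measured genes before Apcs showed differences between -0.06 and 0.07. They were the calcium-binding Casq1 (0.07), the gamma-secretase subunit Ncstn (-0.03), Nhlh1 (0.04) and the lymphocyte receptors Cd84 (0.07), Slamf1 (0.01) and Ly9 (-0.06). Their intervals were narrow except for Casq1 (95% interval -0.31 to 0.46), which was -0.36 in males and 0.51 in females.

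On the other side the nearest genes were interferon-inducible. Ifi204 was 0.33, 0.46, 0.50 and 0.41 in BXD6, BXD31, BXD21 and BXD12, and in the high-Apcs strains it ran from -0.28 (BXD32) over 0.21 to 0.54 (BXD16). Ifi203 was 0.17, 0.25, 0.23 and -0.25 in the same low-Apcs strains and -0.56 (BXD32) to 0.38 (BXD15), median -0.32, in the others. In both genes most high-Apcs strains lay below the low-Apcs ones, but the groups overlapped. Ifi204 differed by -0.32 (95% interval -0.65 to 0.02, adjusted p = 0.986) and Ifi203 by -0.31 (-0.66 to 0.04, adjusted p = 0.986).

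Ifi203 was at an unadjusted p under 0.05 without BXD12, without BXD15 or without BXD16, and it was not called. All features then gave 1147, 762 and 872. The Ifi203 of each of these strains goes against the group difference (-0.25 in BXD12, 0.38 in BXD15 and 0.22 in BXD16). Leaving any of them out therefore widens the difference, so leaving them out is no separate support for it. Ifi203 was also at that level in males alone and on swapped arrays alone, where all features gave 527 and 832. The same held with the split at the second largest gap, which moves BXD12 to the high group (1223), and with Apcs as a continuous covariate (1089). It held too with 26 values of strain and sex and strain as a random block (976). Ifi203 was called in none of these. The parents had the same order, with D2 below B6 by 0.61 in Ifi204 (adjusted p = 0.18) and by 0.52 in Ifi203 (adjusted p = 0.109), neither of them called. Beyond these, Ifi202b differed by -0.15 and Fmn2 by 0.14.

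The neighbours at an unadjusted p under 0.05 were farther off. They included Srp9 of the signal recognition particle (0.51, 95% interval 0.12 to 0.90), the repressor Zbtb18 (0.15, 0.00 to 0.30) and Tlr5. Tlr5, the receptor for bacterial flagellin, was 0.83 in BXD6, 0.49 in BXD31, 0.50 in BXD21 and 0.67 in BXD12, and in the high-Apcs strains it ran from -0.06 (BXD2) over 0.33 to 0.47 (BXD32). It is the named gene whose groups did not overlap in the low direction, with a difference of -0.31 (SE 0.09, adjusted p = 0.956). Between the parents Tlr5 differed by 0.12 in the opposite direction (adjusted p = 0.745). Of the 79 neighbours 37 had the same sign in the strain groups as in D2 over B6 (46.8%), against 52.8% of all features.

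**Figure D4:**
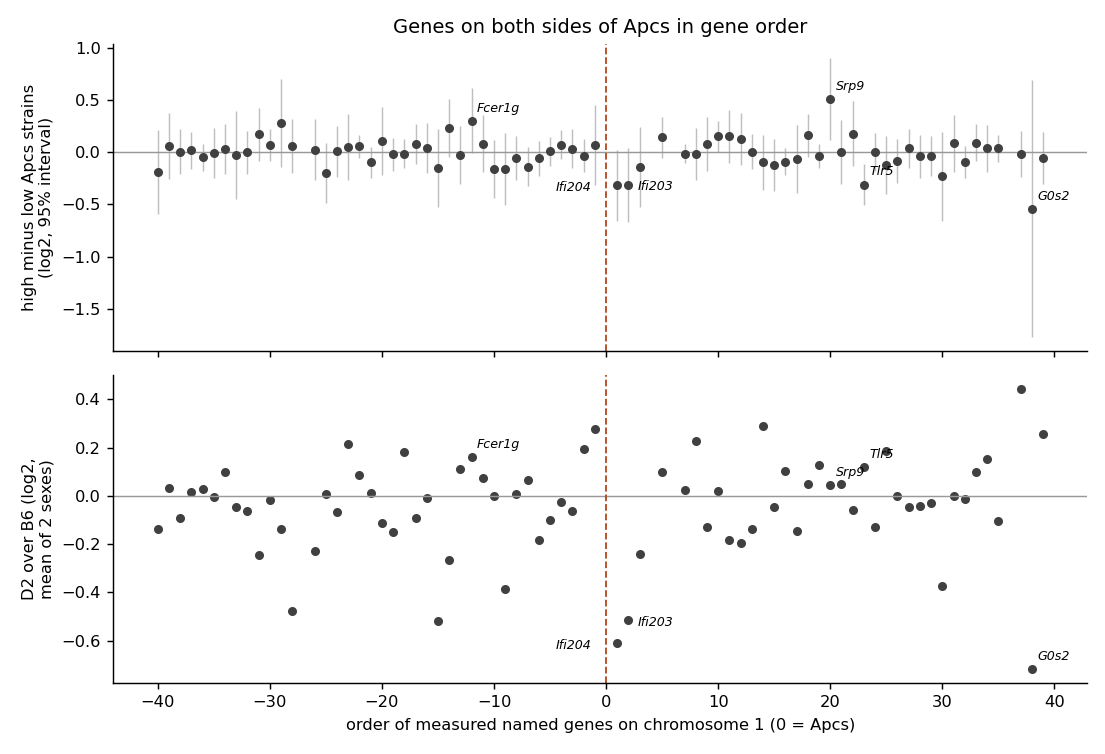
Differences for named genes on chromosome 1 in gene order around Apcs (x axis, dashed line at 0; some genes are not shown), with the difference between high-Apcs and low-Apcs strains and its 95% interval in the upper panel and D2 over B6 in the lower (y axes, log2). Ifi204 and Ifi203, next to Apcs, lie below 0 in both panels (-0.32 and -0.31 above, -0.61 and -0.52 below), and Srp9 reaches 0.51 in the upper panel.

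The genes that help proteins fold in the ER and in heat shock had higher means in the high-Apcs strains in 8 of 9 measured cases. None was called, and 5 were at an unadjusted p under 0.05, all higher: Calr, Pdia4, Dnajc3, Xbp1 and Hsph1. Over all features 4.08% were at that level, and 2.88% were higher. The median difference of the 9 genes was 0.50, against -0.01 over all features. These genes were already known to vary together among the strains from earlier results of these data, so their joint difference is not independent of that.

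Calr encodes calreticulin, the lectin chaperone of the ER. It was 0.45 in BXD6, -0.20 in BXD31, -0.07 in BXD21 and -0.03 in BXD12, and in the high-Apcs strains it ran from -0.07 (BXD5) over 0.80 to 1.36 (BXD11). The groups overlapped through BXD6 and BXD5, and the difference was 0.70 (95% interval 0.26 to 1.14, adjusted p = 0.956). The disulfide isomerase Pdia4 differed by 0.80 (0.12 to 1.47) and was the list's gene called between the parents, 0.80 higher in D2 (limma adjusted p = 0.0265, and 0.0972 with replicate 1 arrays alone). The median of D2 over B6 over the 9 genes was -0.25, opposite in sign to the strain groups. Calr (0.16) and Canx (0.14) were higher in D2, as Pdia4 was. Hsph1 (-0.46), Xbp1 (-0.35), Dnaja1 (-0.32), Dnajc3 (-0.25), Hspa1a (-0.25) and Dnajb1 (-0.21) were lower, and only Pdia4 was called. The sexes differed in sign for Xbp1 (0.16 in males, -0.86 in females), Dnajc3 (0.02 and -0.52), Dnaja1 (-0.72 and 0.07) and Calr (0.43 and -0.12).

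Xbp1, the transcription factor of the unfolded protein response, differed by 0.50 (0.08 to 0.92), and Dnajc3, an ER co-chaperone, by 0.51 (0.04 to 0.97). Hsph1, a cytosolic heat-shock protein, was -0.57 to -0.32 in the low-Apcs strains and spread from -0.74 (BXD28) to 2.03 (BXD32) in the high-Apcs strains, a difference of 0.99 (0.10 to 1.88). Canx differed by 0.27, Dnaja1 by 0.30, Dnajb1 by 0.36 and Hspa1a by -0.08. The heat-shock members thus did not share 1 direction.

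Averaged over the 9 genes, the 4 low-Apcs strains had the lowest levels, 0.21 in BXD31, 0.22 in BXD21, 0.34 in BXD6 and 0.35 in BXD12. The high-Apcs strains ran from 0.43 in BXD5 over 0.79 in BXD18 to 1.11 in BXD19. In none of the 9 genes alone did the groups separate, as they did in 0.21% of all features. The list was named after its values were seen, so the separation of its average is a description. The order within the high group was not that of Apcs, since BXD28 had 0.49 and BXD19 had the highest value. Leaving out each strain in turn kept the list's median between 0.40 and 0.55. The list's count at an unadjusted p under 0.05 fell to 2 without BXD21 and to 3 without BXD6 or without BXD31. All features then gave 544, 786 and 1097, against 894 in the main comparison. With BXD11 and BXD28 set against the other strains the list's count was 0, where all features gave 1289.

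**Figure D5:**
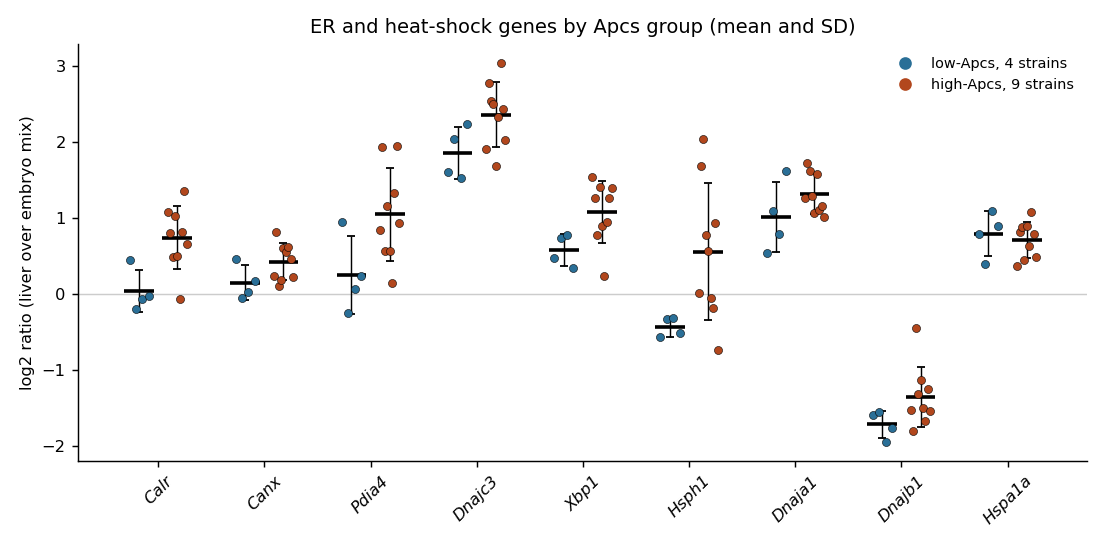
Log2 ratio of liver to embryo mix (y axis) of 9 ER and heat-shock genes, with 1 point per strain, blue for the 4 low-Apcs and orange for the 9 high-Apcs strains, and bars for the mean and SD. The mean of Calr is 0.74 in the high-Apcs and 0.04 in the low-Apcs strains, and Hsph1 spreads from -0.74 to 2.03 among the high-Apcs strains.

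The genes most like Apcs across strains were ranked by correlation. Over the 13 strain means, which share their arrays and their reference with Apcs, Ranbp1 was close to it (Pearson r = 0.82, Spearman rho = 0.73). Ranbp1 was -1.50, -1.49, -1.47 and -1.30 in BXD6, BXD31, BXD21 and BXD12 and -1.32 to -1.01 in the high-Apcs strains, with its highest value in BXD28. Without BXD28 and BXD6, the strains farthest from the median of Apcs, r was 0.69.

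Other genes near the top of that order were the fatty acid binding protein Fabp5 (0.81), the mitochondrial Cox7a2l (0.80), Tyrobp (0.78), the proteasome subunit Psma7 (0.76), the leukocyte gene Cd53 (0.75), Scn8a (0.73), Ap1g1 (0.73) and the complement subunit C1qb (0.73). In each of these genes, as in Ranbp1, the highest strain was BXD28. Without BXD28 and BXD6 the r of Psma7 was 0.52, that of Fabp5 0.57 and that of Tyrobp 0.67. Without BXD11 and BXD28, the highest strains in Apcs, r was 0.78 for Ranbp1, 0.57 for Fabp5, 0.45 for Ap1g1 and 0.40 for C1qb. Tyrobp and C1qb are genes of myeloid cells, seen here at the top of a ranking. Fcer1g, the partner of Tyrobp and 12 named genes before Apcs in gene order, had r = 0.70, and 0.43 without BXD11 and BXD28. The other measured macrophage and Kupffer markers had r = 0.55 (C1qa), 0.54 (Mpeg1), 0.40 (Cd5l) and 0.15 (Marco). For the neutrophil genes S100a8, Elane and Ngp r was -0.02, -0.15 and -0.51.

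The most negative correlations were those of the transporter Slc43a3 (r = -0.86, and -0.81 without BXD28 and BXD6), Bckdha (-0.80), Odf2 (-0.80), the troponin gene Tnnt1 (-0.80) and Rnase1 (-0.77). These were the extremes among 3438 genes over 13 strains, so r of this size is a ranking and carries no p.

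Markers of cell types were compared because a shift in cell makeup and a shift in RNA per cell cannot be told apart in whole liver. The hepatocyte list, 8 of 21 measured, had a mean ratio of 3.70 to 4.09 in the high-Apcs and 3.84 to 4.07 in the low-Apcs strains. The direction of the ratios was read from hepatocyte genes, so this level is no separate check of the tissue. The macrophage and Kupffer list, 5 of 18 measured, lay at 0.32 to 1.06 in the high-Apcs and 0.25 to 0.53 in the low-Apcs strains. None of its 5 genes was at an unadjusted p under 0.05, and Adgre1, Clec4f and Cd68 were not among the named genes. The lymphocyte list, 6 of 20 measured, lay at 0.29 to 0.42 and 0.32 to 0.36. Ptprc, the pan-leukocyte CD45, was 0.17 above the low-Apcs strains in the high-Apcs strains and was not called. It was at an unadjusted p under 0.05, as were 4.08% of all features. Of the other lymphocyte genes Cd4 differed by 0.07, and Cd3e, Cd2, Cd79a and Klrb1c by -0.03, -0.04, -0.003 and -0.08, none at that level. The part of Ptprc in the other results was not tested. No gene was called in the neutrophil, endothelial, stellate cell, bile duct or red blood cell lists.

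The features called between the parents were then set against the split. Of the 124 other features called between D2 and B6, 66 had the same sign between high-Apcs and low-Apcs strains (53.2%, against 52.8% of all features). Between the strain groups 14 of them were at an unadjusted p under 0.05, 11.3% of the parental calls against 4.08% of all features. They made up 1.57% of the 894, against 0.57% of all features called between the parents. Whether this share differs from that of other features was not tested. Lpin1, a phosphatidate phosphatase 2.23 lower in D2, differed by -0.35 (95% interval -1.21 to 0.50) between the groups, and the purine enzyme Xdh, 1.78 lower in D2, by -0.37 (-1.18 to 0.43). Guk1 and Cela1 were at an unadjusted p under 0.05 with signs opposite to those of the parents (0.39 and -0.60 between the groups, -0.97 and 1.11 in D2 over B6). Pdia4 was also at that level, with the same sign in both (0.80 between the groups and 0.80 in D2 over B6).

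Whether the female excess of a gene differed between high-Apcs and low-Apcs strains was tested on female minus male values, 1 per strain. None of 21915 features was called (0%), and 567 were at an unadjusted p under 0.05. The smaller group has 4 strains, and each sex of a strain often rests on 2 arrays.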

How the data were processed

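The authors deposited a log ratio for each probe of each 2-colour array, with no stated base. The deposited values were read as log10, since 94 of them equal 2 or -2 exactly, the apparent limit of the scale, and were converted to log2. Scanner, software, normalization and the build of the array annotation: not given in the sources used here. Forward arrays, with liver in channel 1, were multiplied by -1, so that every value was liver over the embryo mix. Across probes the deposited values of swapped arrays correlated with those of their forward partners at -0.895 to -0.556 (32 pairs). An array titled as a swap of BXD11 females had liver in channel 1, correlated at 0.846 with the forward array of that RNA, and was used as forward.

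Names came from the platform annotation (3290 probes) and, by accession, from a RefSeq table (170 probes), and 18476 probes stayed unnamed. Arrays were averaged within orientation, then over orientations and over sexes, giving 1 value per strain. Groups were compared with lmFit and eBayes of limma 3.58.1 (R 4.3.3), Benjamini-Hochberg adjusted over every feature but Apcs and called under 0.05. The scripts were tested on simulated data. D2 against B6 used 1 dye-balanced value per sex.

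The split, the members and the gene lists were chosen with earlier results of these data known. Named genes are all measured acute-phase genes, the 6 nearest chromosome 1 genes on each side and neighbours at an unadjusted p under 0.05, called genes (there were none between the groups), the 15 with the smallest p in each direction, and the 10 most positive and 5 most negative correlations with Apcs. The ER and heat-shock genes, Cish, Cebpb, Il6st, Jak2, Fcer1g, Ptprc, Lpin1, Xdh, Guk1 and Cela1 were named after their values were seen. So were C1qa, Mpeg1, Cd5l, Marco, S100a8, Elane and Ngp. Some genes that the rule selects go unreported here. Alternatives covered centring, quantile normalization, limma settings, sex, orientation, repeat arrays, the split and leaving out each strain.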

Additional observations from a re-analysis of the deposited data

Results flagged for a closer look

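In 8 of the 140 sets of strain values that were examined (a named gene in the high-Apcs or in the low-Apcs strains), the highest or lowest strain stood apart from the rest of its group by Dixon's criterion. Chance alone marks about 1 in 20 such sets. All values are log2 ratios of liver to embryo mix.

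BXD12 stood lowest among the low-Apcs strains in 3 genes. It had 2.35 in Pzp, a plasma protease inhibitor, where the other strains had 3.24 to 3.41. It had 2.50 in coagulation factor F5, where they had 2.95 to 2.99, and -0.25 in Ifi203, where they had 0.17 to 0.25. BXD12 was also the low-Apcs strain with the highest Apcs, 2.14.

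In the high-Apcs strains BXD2 had -0.06 in Tlr5 (others 0.29 to 0.47), BXD15 had -0.10 in Ahsg (others 0.06 to 0.21) and BXD5 had 0.97 in the protease inhibitor Mug1 (others 1.72 to 2.22). BXD28 was high in Ambp, a plasma glycoprotein precursor, with 3.12 (others 2.54 to 2.82). BXD32 was high in the heat-shock gene Dnajb1 with -0.45 (others -1.80 to -1.14).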

How the results depend on the processing

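Calls between high-Apcs and low-Apcs strains stayed at 0 under 27 of 28 alternatives, each strain left out in turn included. With 26 values of strain and sex and strain as a random block there were 5, all unnamed features higher in the high-Apcs strains. That fit uses 1 correlation (0.14) for all features. Counts at an unadjusted p under 0.05 ran from 527 in males alone to 1289 with BXD11 and BXD28 against the others, an alternative added after seeing the data, as was the split on male Apcs (702). Acute-phase and chromosome 1 calls stayed at 0 under 26 alternatives each, and calls of a sex difference at 0 under 15. Calls between D2 and B6 numbered 25 with replicate 1 arrays alone, 39 with 4 values and 117 after centring. Of the 30 genes with the smallest p, 26 kept their sign in all 27 settings (not Ggps1, Plek, Tdh and Timm13). Those 30 were picked by their p in the main comparison, and the settings refit the same strains. A kept sign is thus favoured by the choice and is no support for these genes. Among genes not picked by p, 5 of 9 ER and heat-shock genes, 4 of 18 acute-phase genes and 3 of the 12 nearest neighbours kept their sign. No paired analysis was possible because each strain gave 1 value and the replicate numbers count arrays within a strain. Signal over background was not analysed here, so dim probes could not be set apart.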

Other observations

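Apcs was also measured on 2 arrays of RNA labelled as enriched, which entered no comparison. There D2 was above B6 by 1.94 on the male and 2.04 on the female array, on the log2 scale. Both values lie below the lowest of the 6 direct arrays of D2 and B6 liver, 2.70. The labels do not say what was enriched.

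BXD28 had the highest ratio among the 13 strains for Apcs (4.84), Saa3 (3.40), Orm1 (4.80) and Fgl1 (4.79), and the lowest for Cebpb (0.34). Its Apcs was nearly the same in males (4.74) and females (4.93), whereas BXD2 (1.90 and 4.34) and BXD19 (1.66 and 3.94) had the widest sex differences. BXD6 had the lowest ratio of the 13 strains for Apcs (1.31), Fgl1 (2.58) and Saa3 (0.75). These strains were singled out after their values were seen, and no test was made.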
